A study of Mus musculus with 67 samples.

Results

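Interleukin 6 (IL-6) was followed through 3 of the 35539 genes in the tables: Il6, which encodes the cytokine, Il6ra, which encodes the receptor chain that binds it, and Il6st, which encodes the chain that carries the signal into the cell. The genes were taken by name. Il6 had been picked because earlier results from these libraries had it low in B cells given anti-Btla, so the levels in the anti-Btla arm of the B cells chose the set and are given as a description, without a test. All 3 genes passed the filter on low counts in every comparison.

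The 60 libraries came from B cells and CD4+ T cells of C57BL/6 mice, purified with enrichment kits from spleens and from inguinal and brachial lymph nodes. The mice were naive or had experimental autoimmune encephalomyelitis (EAE), a disease of the central nervous system induced by immunization with a myelin peptide, and the labels name no transgene or deletion and no age. The methods describe young adult animals of both sexes. Cell type and immunization made 4 sets, called naive B, naive T, EAE B and EAE T, and a set held 5 arms of 3 libraries. Cells were unstimulated, or were cultured for 18 h with latex beads carrying an antigen receptor antibody, which was anti-CD3 for T cells and anti-IgM/G for B cells, and either control Ig or anti-Btla, each without or with soluble interferon beta (IFNb). Anti-Btla was thus given only together with the activating antibody. The labels give no time in culture for the unstimulated cells. Activation, as used here for control Ig against unstimulated, thus takes in the antibody, beads, control Ig and any difference in culture, which cannot be told apart. Btla, which restrains lymphocytes, has as its partner Hvem, the product of Tnfrsf14. Libraries with the same number, 1 to 3, were treated as paired across the arms of a set.

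IL-6 reaches cells by 2 routes. In the classical route it binds the Il6ra chain on the cell surface, and the pair then recruits Il6st, a chain that is shared by the whole IL-6 family and is made by most cells. In the trans route a soluble Il6ra, much of it shed by the protease Adam17, carries IL-6 to cells that have Il6st alone. Jak kinases on Il6st then activate Stat3, and Socs3 dampens the signal. B cells are a known source of IL-6 in EAE, and in T cells the cytokine is known for favoring IL-17-producing cells over regulatory ones.

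Libraries held 6.68 to 61.9 M counts in B cells (median 32.9 M) and 7.3 to 34 M in T cells (median 13.1 M). The B cell libraries had summed B cell markers of 3533 to 6587 CPM, which is the count scaled to the library total, beside CD4+ T cell markers of 3.73 to 13.3 CPM. The T cell libraries had CD4+ T cell markers of 2064 to 3513 CPM and B cell markers of 7.51 to 181 CPM. The description of the T cells as CD4+ went against the data in part. All 15 naive T libraries had Cd8a levels of 213 to 344 CPM and Cd8b1 levels of 287 to 752 CPM beside Cd4 levels of 308 to 589 CPM, whereas the EAE T libraries held Cd8a at 0.80 to 6.16 CPM and Cd4 at 505 to 754 CPM. Since every naive T library was affected, no naive T value can be given without them, and naive and EAE T cells differed in makeup as well as in immunization. In the EAE T libraries macrophage, monocyte and dendritic cell markers summed to 27.97 to 374 CPM, against 18.8 to 43.8 CPM in naive T libraries. In bulk samples fewer cells of a type and less RNA per cell cannot be told apart.

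The promoters are shown so that the ligand can be compared with its receptor chains, whose levels followed other patterns over the arms of the B cells. Il6 lies on mouse chromosome 5 (GRCm38 chr5:30013114-30019981, plus strand, 4 transcripts), Il6ra on chromosome 3 (chr3:89864059-89913196, minus strand, 2 transcripts) and Il6st on chromosome 13 (chr13:112464070-112510086, plus strand, 10 transcripts). Exons of Il6ra overlap those of Gm42809 on the opposite strand, and the strand setting of the counting is not given in the sources used here, so reads of the 2 genes may be mixed. The 250 bases before each start are given 5′ to 3′ on the strand of the gene, from RefSeq (GRCm38.p6), at chr5:30012864-30013113 for Il6, chr3:89913197-89913446 for Il6ra and chr13:112463820-112464069 for Il6st. Capitals mark matches to the motifs searched.
Il6: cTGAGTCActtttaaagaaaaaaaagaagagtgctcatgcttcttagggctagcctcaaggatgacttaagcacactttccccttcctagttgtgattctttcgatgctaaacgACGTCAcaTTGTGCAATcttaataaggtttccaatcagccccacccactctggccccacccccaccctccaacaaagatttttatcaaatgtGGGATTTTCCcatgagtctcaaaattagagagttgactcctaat
Il6ra: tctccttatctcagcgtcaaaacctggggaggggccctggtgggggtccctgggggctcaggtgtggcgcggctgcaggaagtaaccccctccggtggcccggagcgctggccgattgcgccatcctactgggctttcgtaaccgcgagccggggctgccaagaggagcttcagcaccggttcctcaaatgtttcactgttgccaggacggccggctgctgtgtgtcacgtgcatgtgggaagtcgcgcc
Il6st: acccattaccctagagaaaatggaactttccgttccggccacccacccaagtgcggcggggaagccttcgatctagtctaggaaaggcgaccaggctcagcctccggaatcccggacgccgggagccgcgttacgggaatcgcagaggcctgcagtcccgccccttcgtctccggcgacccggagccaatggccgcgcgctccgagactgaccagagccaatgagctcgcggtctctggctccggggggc

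The motifs searched, on both strands, were NF-kB as GGGA and TTCC separated by any 2 bases, AP-1 as TGAGTCA, the CRE core as ACGTCA, C/EBP as TTNNGCAAT and STAT as TTCNNNGAA. The Il6 promoter held 4 of them, none overlapping another. Counted upstream from the start, AP-1 lay at 249 to 243 bases, the CRE core at 136 to 131, C/EBP at 128 to 120 and NF-kB at 44 to 35. Among 32851 promoters of the same length, 1.21% held the NF-kB letters, 4.46% AP-1, 6.47% the CRE core, 1.93% C/EBP and 7.02% STAT. Neither receptor promoter held any of the letters. They were also richer in G and C (65.2% for Il6ra and 66% for Il6st, against 42.8% for Il6), with 18 and 26 CpG pairs against 3. A match is a description of these letters and not of binding.

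Il6, the ligand, was lowest in the anti-Btla arms of both B cell sets. Unstimulated naive B cells had Il6 at 25.9, 28.6 and 28.5 CPM (27.6 ± 1.54, SD, n = 3), control Ig at 36.7, 45.2 and 39.4 (40.4 ± 4.35), control Ig + IFNb at 37.5, 47.1 and 39.1 (41.2 ± 5.15), anti-Btla at 9.82, 15.97 and 12.3 (12.7 ± 3.09), and anti-Btla + IFNb at 9.25, 15.6 and 9.18 (11.4 ± 3.70). The libraries of both anti-Btla arms lay below every unstimulated library, and all control Ig libraries lay above them. Among EAE B cells, Il6 stood at 40.9, 30.2 and 36.0 CPM unstimulated (35.7 ± 5.35), 43.4, 42.6 and 35.3 with control Ig (40.4 ± 4.48), 41.1, 39.8 and 34.7 with control Ig + IFNb (38.6 ± 3.37), 15.1, 12.7 and 12.3 with anti-Btla (13.4 ± 1.55), and 15.2, 12.3 and 10.4 with anti-Btla + IFNb (12.6 ± 2.45). Here the unstimulated and control Ig libraries overlapped, and the anti-Btla libraries again lay below both.

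**Figure D1:**
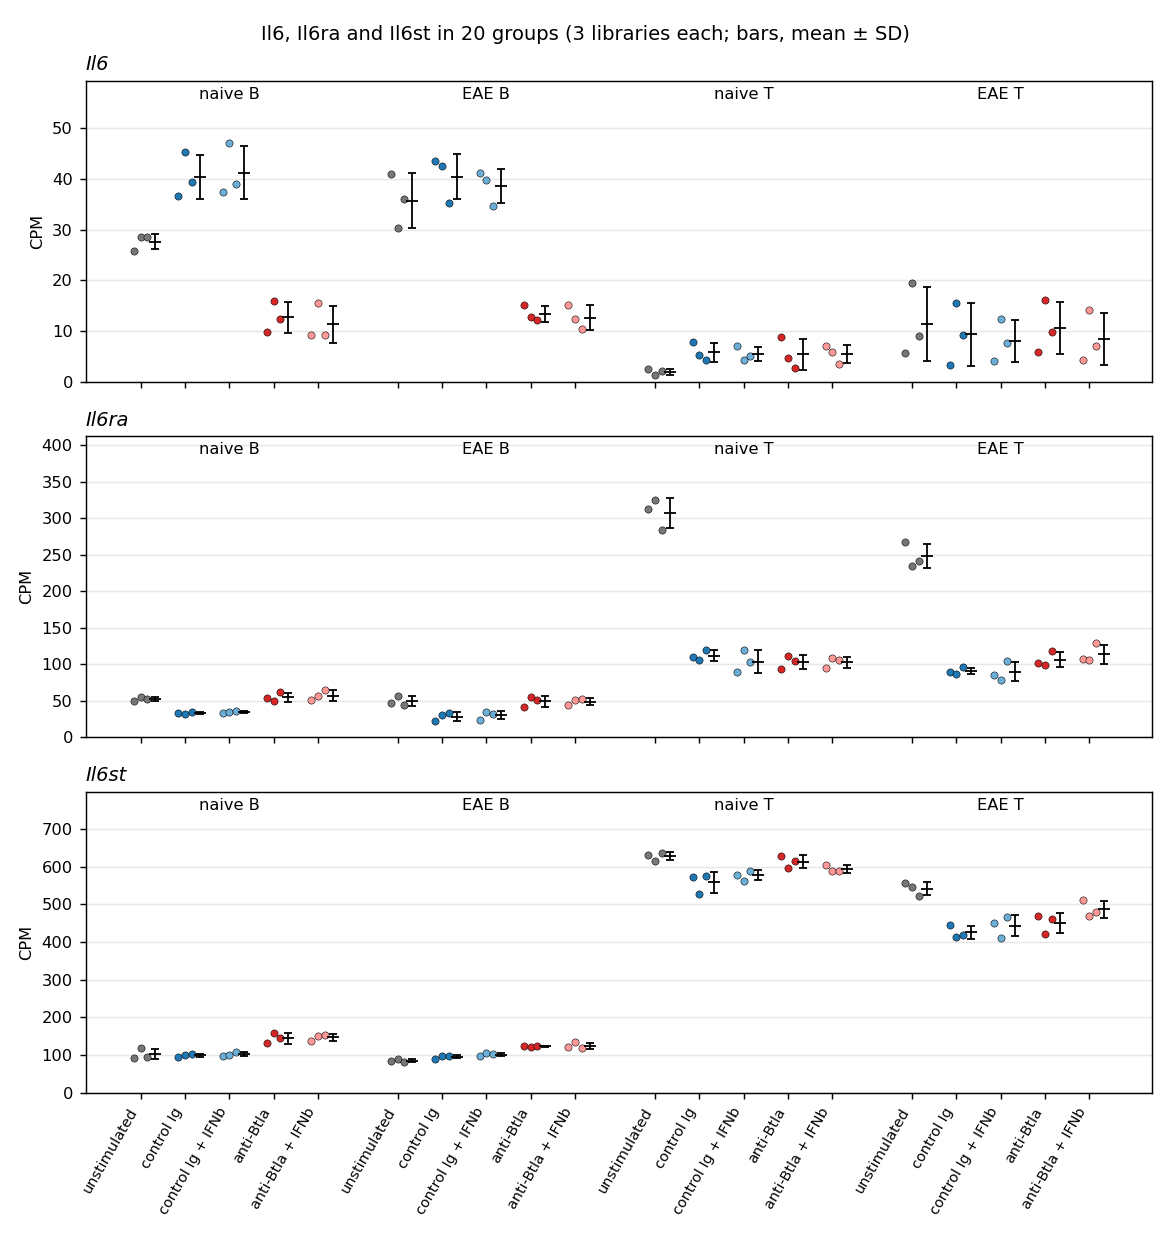
Levels of Il6, Il6ra and Il6st in CPM in the 20 groups, with points for the 3 libraries and bars for the mean ± SD. Il6 is highest in B cells without anti-Btla and drops to means of 11.4 to 13.4 CPM in the 4 B cell anti-Btla groups, while Il6ra and Il6st are highest in T cells.

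As a description, mean Il6 was 3.18-fold lower with anti-Btla than with control Ig in naive B cells and 3.02-fold lower in EAE B cells, in 3 of 3 pairs each (SD of the log2 ratios of pairs 0.20 and 0.13). These are the values that chose the gene, in comparisons in which 32.8% and 30.1% of all genes were called (19.7% and 16.5% called lower), and nothing is read from them. Against unstimulated cells the means were 2.18-fold and 2.67-fold lower, again in 3 of 3 pairs, where 7.71% and 5.73% of genes were called, 4.06% and 2.49% of them lower and 3.65% and 3.24% higher.

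The arms that received IFNb are other libraries with the same replicate numbers. Low Il6 there was likewise known from earlier results when the genes were chosen, so these changes too are a description, without a p. In naive B cells the fitted Il6 level was lower by 1.93 ± 0.12 on the log2 scale (SE, edgeR) with anti-Btla + IFNb than with control Ig + IFNb, a comparison in which 29.5% of 16618 genes were called and 17.6% were called lower. It was lower in 3 of 3 pairs, and the change ranked 40 from the lowest. In EAE B cells the difference was 1.69 ± 0.11, also in 3 of 3 pairs and at rank 94 of 16989, with 31% of genes called and 17.4% called lower. Against the unstimulated arm, whose libraries also served the description above, Il6 was lower by 1.28 ± 0.12 in naive and by 1.48 ± 0.11 in EAE B cells, in comparisons with 8.02% and 7.16% of genes called and 3.79% and 3.98% called lower.

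Without anti-Btla, Il6 was modestly higher in activated than in unstimulated B cells. The control Ig libraries were also 1 side of the comparison that chose Il6. Its p-values on activation of B cells are therefore not independent of that choice, and nothing is concluded from them. Control Ig exceeded unstimulated by 0.65 ± 0.11 on the log2 scale in naive B cells (edgeR adjusted p = 0.000201), in 3 of 3 pairs and without overlap, in a comparison in which 40.2% of genes were called and 22.7% were called higher. In EAE B cells the increase was 0.31 ± 0.10 (adjusted p = 0.0269, 39.8% of genes called) in 2 of 3 pairs with overlapping groups. That call was lost without unstimulated library 1, unstimulated library 2 or control Ig library 2, where the change ran from 0.19 to 0.45, and without the pairing of libraries (0.31, adjusted p = 0.22). The EAE-minus-naive difference of the activation changes was not called for any of the 3 genes (log2 differences of -0.33 to 0.24, lowest adjusted p = 0.900, 0.0808% of genes called). Differences of the anti-Btla + IFNb changes ran from -0.25 to 0.24, where 0 of 17323 genes were called by edgeR, 671 at an unadjusted p under 0.05 and 3 by DESeq2. Low Il6 in both sets was known when the genes were chosen, so its value in that range is a description without a test.

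Il6ra, the binding chain, had the opposite pattern in B cells. Its levels in naive B cells were 49.8, 55.7 and 52.6 CPM unstimulated (52.7 ± 2.94), 33.5, 32.4 and 35.0 with control Ig (33.6 ± 1.29), 33.8, 35.4 and 36.7 with control Ig + IFNb (35.3 ± 1.45), 53.7, 49.2 and 61.5 with anti-Btla (54.8 ± 6.20), and 50.5, 56.0 and 64.8 with anti-Btla + IFNb (57.1 ± 7.23). Both anti-Btla arms overlapped the unstimulated libraries, and all control Ig libraries lay below them. EAE B cells had 46.9, 56.9 and 45.0 CPM unstimulated (49.6 ± 6.38), 22.2, 30.6 and 33.01 with control Ig (28.6 ± 5.68), 23.9, 34.7 and 32.6 with control Ig + IFNb (30.4 ± 5.70), 41.3, 55.8 and 51.4 with anti-Btla (49.5 ± 7.44), and 44.3, 50.8 and 52.2 with anti-Btla + IFNb (49.1 ± 4.19). Both control Ig arms again lay below the other arms without overlap, and library 1 was lowest in 4 of the 5 arms.

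Activation lowered Il6ra by 0.54 ± 0.076 on the log2 scale in naive B cells (edgeR adjusted p = 3.5e-05) and by 0.67 ± 0.091 in EAE B cells (adjusted p = 4.85e-05), in 3 of 3 pairs each, where 17.5% and 18.8% of genes were called lower. With anti-Btla + IFNb it was higher than with control Ig + IFNb by 0.64 ± 0.077 (adjusted p = 1.49e-05) and 0.65 ± 0.092 (adjusted p = 0.000123), where 12% and 13.6% of genes were called higher. Against unstimulated B cells the differences of 0.15 ± 0.075 (adjusted p = 0.284) and 0.02 ± 0.091 (adjusted p = 0.930) were not called. In the anti-Btla arms without IFNb, described only, mean Il6ra was 1.63-fold and 1.73-fold that of control Ig in naive and EAE B cells, and 1.04-fold and 0.998-fold that of unstimulated cells. Without control Ig library 1 of the EAE B cells the log2 ratio to control Ig was 0.64, within a range of 0.64 to 0.91 over single libraries left out.

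Il6st, the signaling chain, had no called fall on activation of B cells and was highest in their anti-Btla arms. Naive B cells had 93.4, 118 and 94.9 CPM unstimulated (102 ± 13.7), 94.1, 101 and 102 with control Ig (99.1 ± 4.38), 98.5, 101 and 107 with control Ig + IFNb (102 ± 4.49), 131, 160 and 144 with anti-Btla (145 ± 14.3), and 136, 151 and 153 with anti-Btla + IFNb (147 ± 9.39). The anti-Btla libraries stood above all others of the set. Levels in EAE B cells were 84.3, 88.8 and 82.2 CPM (85.1 ± 3.40), 90.3, 98.4 and 98.1 (95.6 ± 4.63), 96.9, 105 and 102 (101 ± 4.16), 123, 122 and 123 (123 ± 0.746), and 120, 134 and 119 (124 ± 8.24) in the same order of arms. Again every library of the anti-Btla arms lay above every library of the other arms.

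On activation Il6st changed by 0.07 ± 0.066 in naive B cells (edgeR adjusted p = 0.433), which was not called, and rose by 0.30 ± 0.056 in EAE B cells (adjusted p = 0.000722), where 21.1% of genes were called higher. With anti-Btla + IFNb it exceeded control Ig + IFNb by 0.47 ± 0.066 in naive B cells (adjusted p = 6.39e-05) and by 0.23 ± 0.057 in EAE B cells (adjusted p = 0.00698), in 3 of 3 pairs each. The call in EAE B cells was lost with length-scaled counts (0.21, adjusted p = 0.073). It also stood above unstimulated cells, by 0.57 ± 0.066 (adjusted p = 8.04e-05) and 0.58 ± 0.057 (adjusted p = 4.85e-05), where 4.23% and 3.17% of genes were called higher. Against unstimulated B cells Il6st was thus called higher and Il6ra was not called. The receptor chains were not tested against each other. In the anti-Btla arms described without a test, mean Il6st was 1.46-fold and 1.28-fold that of control Ig and 1.42-fold and 1.44-fold that of unstimulated cells.

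**Figure D2:**
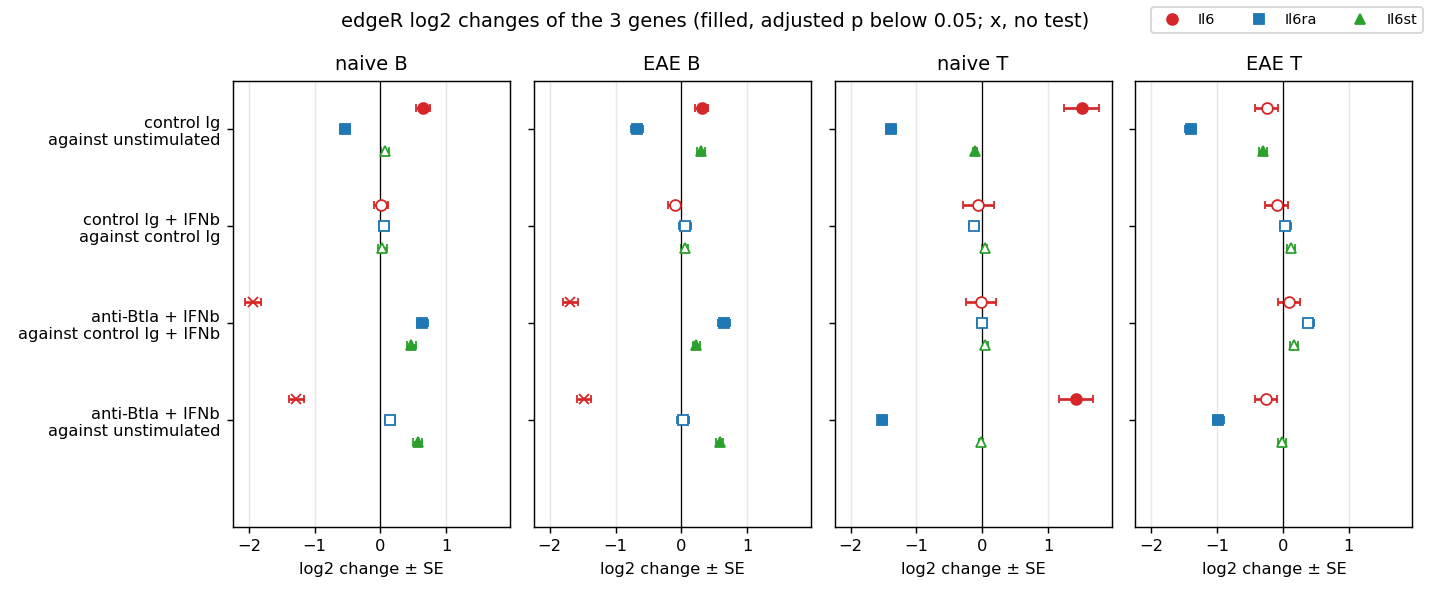
Log2 changes ± SE from edgeR of Il6, Il6ra and Il6st in 4 comparisons within each of the 4 sets, with filled points where the adjusted p was below 0.05 and crosses for the Il6 changes described without a test. In both B cell sets Il6 lies far below 0 and both receptor chains lie above 0 with anti-Btla + IFNb against control Ig + IFNb, while in T cells no member is called in that comparison.

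Markers of other cell types were read in the B cell libraries beside these results. Macrophage, monocyte and dendritic cell markers summed to 36.6 to 50.1 CPM in unstimulated, 45.0 to 55.3 in control Ig and 48.8 to 77.5 in anti-Btla naive B cells, and to 33.9 to 47.0, 45.5 to 52.2 and 53.3 to 73.8 CPM in EAE B cells. Of the 10 genes on that list, Adgre1 had the highest level at 9.38 to 33.4 CPM, Lyz2 ran from 1.58 to 15.8, Flt3 from 4.85 to 14.9 and Cd68 from 5.1 to 11.3 CPM, while C1qa was at 0 in every B cell library. Stromal and endothelial markers summed to 232 to 239 CPM unstimulated, 135 to 142 with control Ig and 199.8 to 209 with anti-Btla in naive B cells, and to 208 to 242, 116 to 131 and 194 to 218 CPM in EAE B cells. Nearly all of that sum was Pecam1, and it moved with Il6ra. Plasma cell markers summed to 577 to 614, 636 to 668 and 589.8 to 602 CPM in these arms of naive B cells, mostly from Irf4. Summed B cell markers were 6044 to 6495 CPM unstimulated, 3907 to 4356 with control Ig and 4763 to 5505 with anti-Btla in naive B cells, so they moved with Il6ra as well. The part of any of these in the levels of Il6 and its receptor chains was not tested. Btla itself went from 652 ± 6.13 CPM unstimulated to 372 ± 23.7 with control Ig in naive B cells (log2 change -0.70 ± 0.048, edgeR adjusted p = 2.58e-08), and was 0.58 ± 0.048 higher with anti-Btla + IFNb than with control Ig + IFNb (adjusted p = 3.81e-07). That difference was 0.77 ± 0.098 (adjusted p = 4.89e-05) in EAE B cells. Tnfrsf14, at 7.08 to 9.17 CPM in these group means, was not called in any of these B cell comparisons.

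IFNb itself gave no called change of the 3 genes in either cell type. Against control Ig alone, the log2 changes lay between 0.0068 and 0.050 in naive B cells and between -0.10 and 0.05 in EAE B cells, with SEs of 0.056 to 0.11. No gene at all was called in B cells by edgeR, with 607 of 16618 and 400 of 16989 genes at an unadjusted p under 0.05 and 7 and 2 called by DESeq2. Changes in T cells ran from -0.13 to 0.036 in naive and from -0.096 to 0.12 in EAE cells, where edgeR called 0 of 15137 genes (926 at an unadjusted p under 0.05, 2 by DESeq2) and 0.158% of 14561.

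The other genes of the pathway were described by lists that left out the 3 genes. Of 6 tested members of the IL-6 cytokine family, 1 was called higher and 1 lower with anti-Btla + IFNb against control Ig + IFNb in naive B cells, where 12% of all genes were called higher and 17.6% lower. Ebi3, the subunit that IL-27 and IL-35 share, fell by 0.75 ± 0.13 on the log2 scale (edgeR adjusted p = 0.000386), and by 0.60 ± 0.16 in EAE B cells (adjusted p = 0.0107). Clcf1, a cytokine that signals through Il6st, rose by 0.22 ± 0.08 in naive B cells (adjusted p = 0.045) after a fall of 0.63 ± 0.07 on activation (adjusted p = 6.16e-06). Among 4 other receptor chains tested, 2 were called higher in naive B cells (median 0.518, against 0.002 over all genes) and 0 in EAE B cells by edgeR (median 0.358, against 0.029). Lifr, the receptor chain for leukemia inhibitory factor that pairs with Il6st, rose by 0.93 ± 0.09 in naive B cells (adjusted p = 1.48e-06). In EAE B cells its change was 0.57 ± 0.24 (adjusted p = 0.0868). On activation Lifr had fallen by 1.16 ± 0.08 in naive (adjusted p = 4.73e-08) and by 0.95 ± 0.23 in EAE B cells (adjusted p = 0.00424).

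Of 4 receptor shedding genes, 0 were called higher and 1 lower by edgeR on activation of naive B cells, and 1 and 2 in EAE B cells. Of all genes, 22.7% were called higher and 17.5% lower there in naive and 21.1% and 18.8% in EAE B cells. Rhbdf2, which carries the shedding protease Adam17 to the cell surface, fell by 1.05 ± 0.10 in naive B cells (edgeR adjusted p = 9.16e-07) and by 1.01 ± 0.14 in EAE B cells (adjusted p = 7.12e-05). With anti-Btla + IFNb its changes of 0.20 ± 0.11 (adjusted p = 0.193) and 0.22 ± 0.15 (adjusted p = 0.279) were not called. Adam17 itself rose by 0.16 ± 0.05 in naive B cells (adjusted p = 0.0225), the 1 of 4 shedding genes called there.

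Genes of the Jak-Stat3 relay went in both directions. In naive B cells 3 of 14 were called higher and 4 lower with anti-Btla + IFNb, and in EAE B cells 2 and 3 of 13. The shares of all genes called were 12% higher and 17.6% lower in naive and 13.6% and 17.4% in EAE B cells. Stat3 fell by 0.39 ± 0.04 (edgeR adjusted p = 9.06e-06) and 0.40 ± 0.10 (adjusted p = 0.00749), after rises of 0.43 ± 0.04 (adjusted p = 1.37e-06) and 0.44 ± 0.10 (adjusted p = 0.00324) on activation. Cish, a feedback inhibitor of cytokine receptors, fell by 1.88 ± 0.21 (adjusted p = 5.66e-06) and 2.22 ± 0.20 (adjusted p = 2.74e-06). Jak1, the kinase that binds Il6st, rose by 0.36 ± 0.06 (adjusted p = 0.000355) and 0.20 ± 0.05 (adjusted p = 0.0082). Of the genes that Stat3 is known to act on, 2 of 9 were called higher and 3 lower in naive and 2 and 2 of 10 in EAE B cells, beside the same shares of all genes. Pim1, a survival kinase, fell by 0.56 ± 0.06 (adjusted p = 5.51e-06) and 0.75 ± 0.11 (adjusted p = 0.000162), and Batf, a factor of activated lymphocytes, by 0.90 ± 0.13 (adjusted p = 6.59e-05) and 1.02 ± 0.12 (adjusted p = 2.07e-05). Maf, a factor that acts on Il10 and Il21, rose by 0.64 ± 0.19 (adjusted p = 0.0213) and 0.98 ± 0.19 (adjusted p = 0.00111).

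Transcription factors that act on Il6 were counted with anti-Btla + IFNb in the same way. Of the 17 factors 1 rose and 7 fell in naive B cells, where 12% of all genes rose and 17.6% fell, with a median of -0.202 against 0.002 over all genes. The EAE B cells had 0 that rose and 6 that fell in the edgeR test, where 13.6% of all genes rose and 17.4% fell, with a median of -0.231 against 0.029. Nfkb1, an NF-kB subunit, fell by 0.40 ± 0.04 (edgeR adjusted p = 2.11e-06) and 0.41 ± 0.06 (adjusted p = 0.000199), from rises of 0.36 ± 0.04 (adjusted p = 2.73e-06) and 0.36 ± 0.06 (adjusted p = 0.000349) on activation. Fosl2, an AP-1 subunit, fell by 1.29 ± 0.22 (adjusted p = 0.000382) and 1.00 ± 0.22 (adjusted p = 0.00338), from rises of 1.68 ± 0.23 (adjusted p = 2.17e-05) and 1.83 ± 0.22 (adjusted p = 1.95e-05). Rel, a further NF-kB subunit, fell by 0.18 ± 0.04 in naive B cells (adjusted p = 0.00428), and Cebpb, a C/EBP factor, by 1.32 ± 0.26 in EAE B cells (adjusted p = 0.00144). On activation 5 were higher and 4 lower in naive B cells, where 22.7% of all genes were called higher and 17.5% lower. In EAE B cells 4 were higher and 5 lower, beside 21.1% and 18.8% of all genes.

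Genes of Il6 mRNA decay and stabilization had 2 higher and 1 lower of 10 in naive and 3 and 1 of 10 in EAE B cells with anti-Btla + IFNb, where 12% of all genes were higher and 17.6% lower in naive and 13.6% and 17.4% in EAE B cells. The lower gene in both was Elavl1, which encodes an RNA-binding protein that stabilizes cytokine mRNAs, at -0.34 ± 0.05 (edgeR adjusted p = 7.98e-05) and -0.40 ± 0.06 (adjusted p = 0.000136). Zfp36l2, which promotes decay of such mRNAs, rose by 0.60 ± 0.10 (adjusted p = 0.000241) and 0.68 ± 0.09 (adjusted p = 4.93e-05). Malt1, a protease that cuts decay factors, rose by 0.34 ± 0.06 (adjusted p = 0.000374) and 0.30 ± 0.07 (adjusted p = 0.0037). On activation the decay list had 1 higher and 5 lower in naive B cells, with a median of -0.266 against -0.02 over all genes. The EAE B cells had 1 and 4, with a median of -0.224 against -0.053. Of all genes, 22.7% were called higher and 17.5% lower in naive and 21.1% and 18.8% in EAE B cells.

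**Figure D3:**
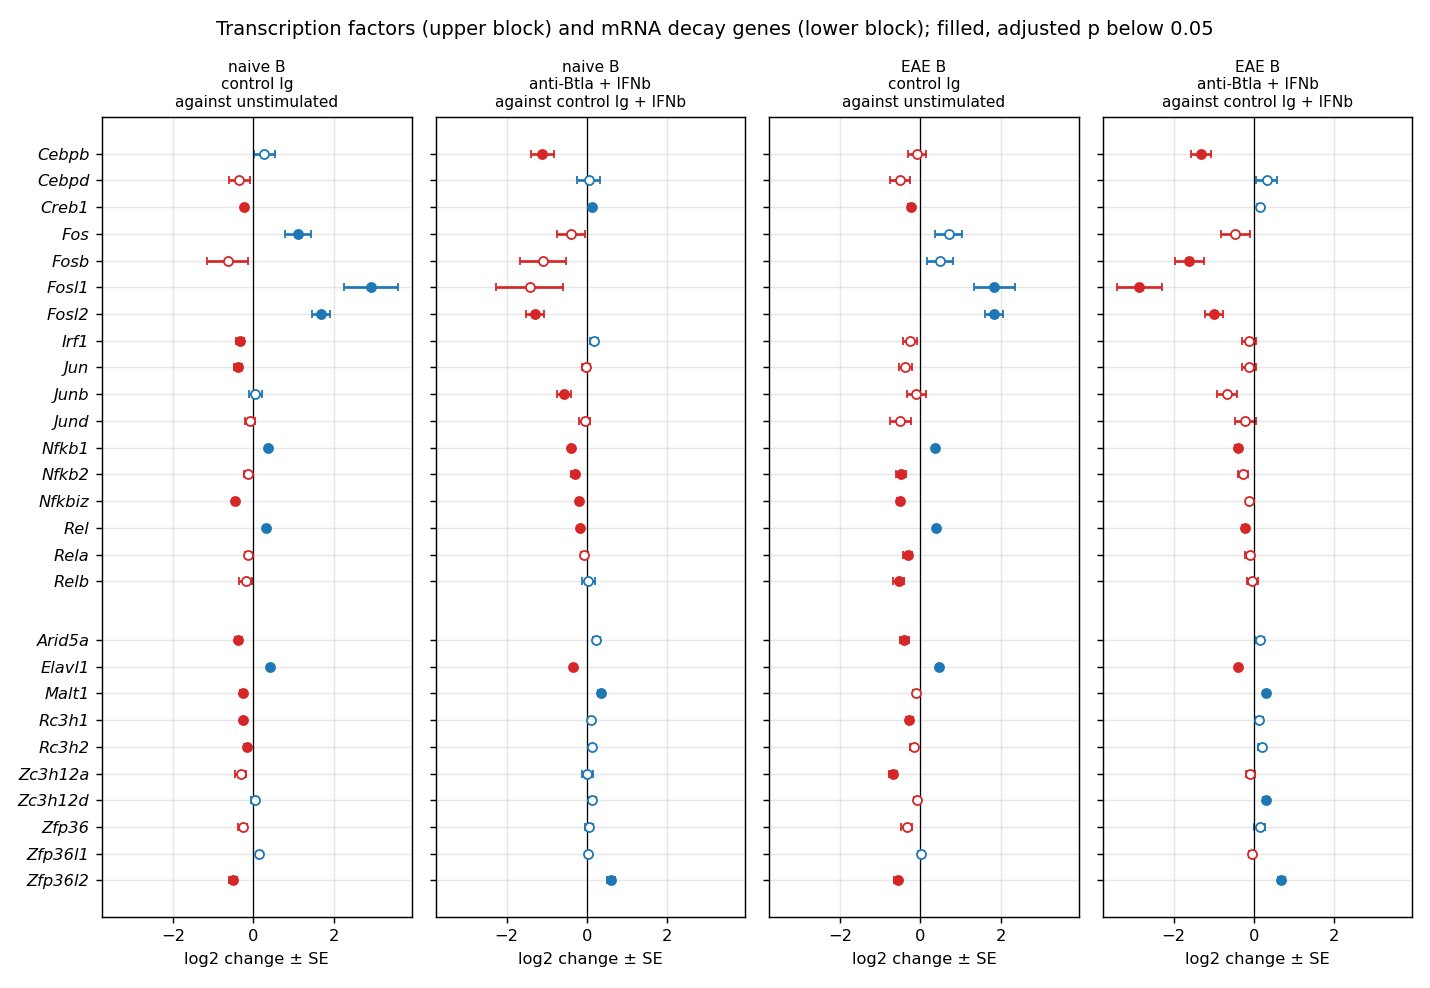
Log2 changes ± SE from edgeR in naive and EAE B cells for 17 transcription factors that act on Il6 and 10 genes of Il6 mRNA decay and stabilization, on activation and with anti-Btla + IFNb against control Ig + IFNb, with blue above 0, red below 0 and filled points where the adjusted p was below 0.05. Fosl2, Nfkb1 and Elavl1 lie above 0 on activation and below 0 with anti-Btla + IFNb, and Zfp36l2 does the reverse.

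In T cells Il6 was low. Naive T cells had 2.60, 1.37 and 2.09 CPM unstimulated (2.02 ± 0.617), 7.95, 5.38 and 4.30 with control Ig (5.88 ± 1.87), 7.07, 4.399 and 5.14 with control Ig + IFNb (5.54 ± 1.38), 8.78, 4.70 and 2.80 with anti-Btla (5.43 ± 3.05), and 7.07, 6.00 and 3.52 with anti-Btla + IFNb (5.53 ± 1.82). Every stimulated library lay above the unstimulated ones. EAE T cells had 5.74, 19.6 and 9.04 CPM unstimulated (11.5 ± 7.23), 3.35, 15.6 and 9.18 with control Ig (9.37 ± 6.12), 4.15, 12.4 and 7.67 with control Ig + IFNb (8.07 ± 4.14), 5.89, 16.1 and 9.85 with anti-Btla (10.6 ± 5.16), and 4.30, 14.3 and 7.06 with anti-Btla + IFNb (8.54 ± 5.14). In all 5 arms library 2 was highest and library 1 lowest, and the arms overlapped.

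Activation raised Il6 in naive T cells by 1.51 ± 0.26 on the log2 scale (edgeR adjusted p = 9.34e-05), in 3 of 3 pairs, where 50.1% of genes were called and 27.1% were called higher. The same change in EAE T cells was -0.25 ± 0.17 (adjusted p = 0.211, 63.1% of genes called), and the EAE-minus-naive difference of -1.69 ± 0.32 was called (adjusted p = 0.000165, 37.8% of genes called). Without the pairing that difference was -1.719 (adjusted p = 0.10). Unstimulated EAE T cells had more Il6 than unstimulated naive T cells, by 2.60 ± 0.46 (adjusted p = 0.0025), where 35.7% of genes were called and 18.6% were called higher. With control Ig the difference of 0.83 ± 0.46 was not called (adjusted p = 0.16, 51.6% of genes called). It was called at 1.25 (adjusted p = 0.0054) without EAE T control Ig library 1, and leaving out single libraries gave 0.23 to 1.25.

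Markers of other cells differed between the T cell libraries, some of them in step with Il6. In unstimulated EAE T libraries 1, 2 and 3 the macrophage, monocyte and dendritic cell markers summed to 135, 374 and 179 CPM, and with control Ig to 28.6, 81.8 and 53.9 CPM, so library 2 was highest and library 1 lowest in each arm, as for Il6. Between the arms the sums were far lower with control Ig, while mean Il6 was 11.5 and 9.37 CPM. Of the 10 markers, Lyz2 reached 2.27 to 134 CPM, Itgam 7.03 to 95.5, Adgre1 1.5 to 44.1 and Cd14 0.93 to 23.3, while C1qa was at 0 in 12 of 15 EAE T libraries. Neutrophil, mast cell and basophil markers summed to 4.87 to 60.2 CPM, with Mcpt8 at 1.19 to 27.6 CPM. Across the 15 EAE T libraries, which share replicate numbers and arms, log2 Il6 had a Pearson r of 0.728 with the macrophage sum, 0.798 with the neutrophil sum, -0.454 with the B cell sum and -0.249 to 0.304 with the other 4 lists. In naive T libraries the macrophage sum was 18.8 to 43.8 CPM (r = 0.643), and the CD8 and NK cell sum, 541 to 1204 CPM, had r = -0.875. The plasma cell list had r = 0.797 there, the stromal list -0.796, the neutrophil list 0.214, the B cell list 0.27 and the CD4+ T cell list 0.479. In naive T libraries Irf4 had the highest median of the plasma cell list (796 CPM) and Pecam1 of the stromal list (231.5 CPM). The plasma cell sum was 59.8 to 74.4 CPM unstimulated and 795.6 to 936 CPM with control Ig, so its r takes in the step between arms. These are descriptions, and the part of such cells in the Il6 levels was not tested.

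**Figure D4:**
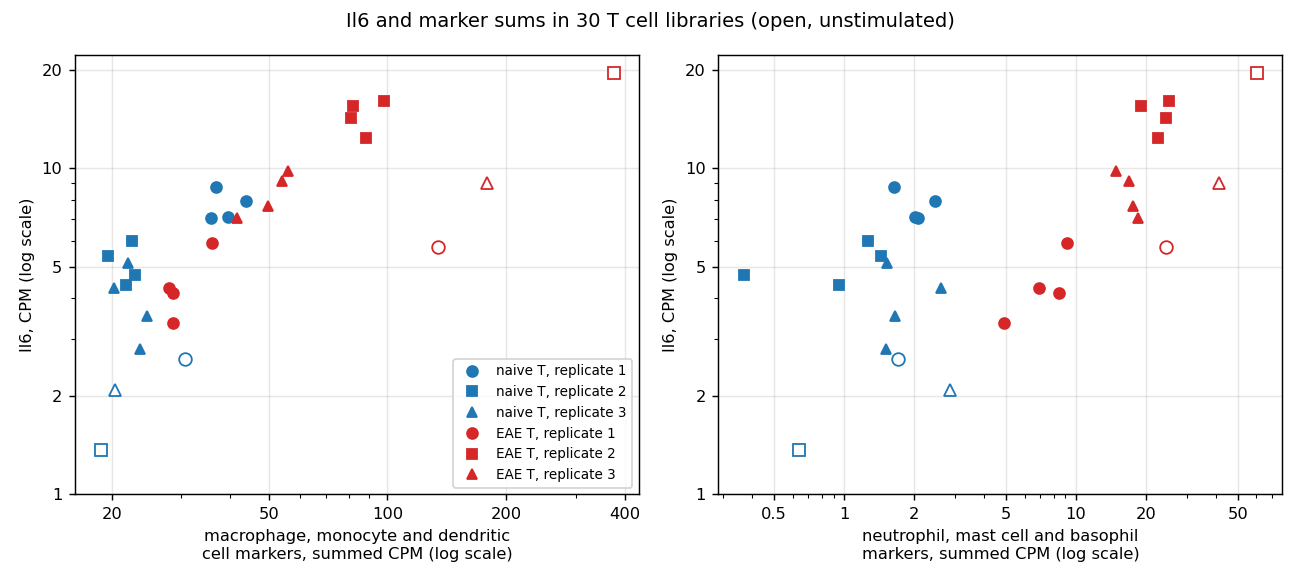
Il6 in CPM against the summed CPM of macrophage, monocyte and dendritic cell markers and of neutrophil, mast cell and basophil markers in the 30 T cell libraries, on log axes, by replicate number, with open symbols for unstimulated cells. Among EAE T libraries of each arm, number 2 is highest and number 1 lowest on both axes, with Il6 at 3.35 to 19.6 CPM over the set.

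Il6ra fell steeply on activation of both T cell sets. Naive T cells had Il6ra at 312, 325 and 284 CPM unstimulated (307 ± 20.96) and 110, 105 and 120 with control Ig (112 ± 7.58). EAE T cells had 268, 235 and 242 CPM (248 ± 17.03) and 90.1, 87.4 and 95.8 (91.1 ± 4.26). In the 3 other arms the group means were 103 to 104 CPM in naive and 89.6 to 114 CPM in EAE T cells, so all stimulated libraries lay far below the unstimulated ones. Activation lowered Il6ra by 1.39 ± 0.074 in naive T cells (edgeR adjusted p = 2.14e-11, 23% of genes called lower) and by 1.40 ± 0.082 in EAE T cells (adjusted p = 7.59e-10, 31.4% called lower). The difference of 0.06 between these changes was not called. Over the same step the summed CD8 and NK cell markers of naive T libraries were 1028 to 1204 CPM unstimulated and 639.6 to 794 CPM with control Ig. In EAE T libraries they were lower throughout and also fell, from 60.3 to 75.04 CPM unstimulated to 26.4 to 32.5 CPM with control Ig. Their part in the Il6ra changes was not tested.

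Il6st in naive T cells was 632, 615 and 635 CPM unstimulated (627 ± 10.6) and 572, 527 and 576 with control Ig (558 ± 26.9), and in EAE T cells 558, 545 and 523 CPM (542 ± 17.8) and 446, 414 and 419 (427 ± 17.1). Control Ig lay below unstimulated without overlap in both sets. The falls were 0.11 ± 0.035 (edgeR adjusted p = 0.0156) and 0.30 ± 0.063 (adjusted p = 0.000541), and their difference was not called (-0.13, adjusted p = 0.139). The call in naive T cells was lost without control Ig library 2 (range -0.14 to -0.080) and without the pairing (adjusted p = 0.061), and the change was 0.0042 with length-scaled counts.

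Anti-Btla gave no called change of the 3 genes in T cells. Naive T cells had Il6 at -0.21 ± 0.23 (edgeR adjusted p = 0.860), Il6ra at -0.15 ± 0.076 (adjusted p = 0.651) and Il6st at 0.12 ± 0.035 (adjusted p = 0.351) against control Ig, where 0 of 15137 genes were called by edgeR, 1249 at an unadjusted p under 0.05 and 32 by DESeq2. In EAE T cells the changes ran from 0.11 to 0.28 (lowest adjusted p = 0.312, 0.0687% of genes called). With IFNb the naive T changes ran from -0.02 to 0.05 (0.0132% of genes called). In EAE T cells, where 0 of 14561 genes were called by edgeR (1416 at an unadjusted p under 0.05, 31 by DESeq2), Il6ra was 107, 106 and 129 CPM with anti-Btla + IFNb (114 ± 13.1) against 86.0, 78.8 and 104 with control Ig + IFNb (89.6 ± 13). This was a difference of 0.38 ± 0.081, higher in 3 of 3 pairs, with an unadjusted p of 0.000244 and an adjusted p of 0.320, and DESeq2 called it (0.38, adjusted p = 0.015).

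The anti-Btla arms of T cells were also set against unstimulated cells. Il6 was higher by 1.30 ± 0.27 in naive T cells (edgeR adjusted p = 0.000464, 49.6% of genes called, with 27.5% higher and 22.1% lower) and by 1.43 ± 0.26 with IFNb (adjusted p = 0.000122, 52% called). Il6ra was lower by 1.53 ± 0.074 (adjusted p = 5.2e-12) and 1.52 ± 0.073 (adjusted p = 4.29e-12) in naive and by 1.15 (adjusted p = 6.45e-09, 62.8% of genes called) and 0.98 (adjusted p = 4.48e-08, 58.9% called) in EAE T cells. Il6st differed by -0.20 in EAE T cells with anti-Btla (adjusted p = 0.013), a call lost without any 1 of the 3 anti-Btla libraries or unstimulated library 2 (range -0.23 to -0.085), and by -0.01 with IFNb.

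Other genes of the pathway moved widely with activation of T cells. In naive T cells 15 of 17 transcription factors that act on Il6 rose and 1 fell (median 1.508, against -0.024 over all genes), and 10 of 12 Stat3 target genes rose (median 1.168), where 27.1% of all genes rose and 23% fell. In EAE T cells 8 of the 17 factors rose and 6 fell (median 0.037, against -0.071), beside 31.7% and 31.4% of all genes. Nfkb1 rose by 1.60 ± 0.05 in naive (edgeR adjusted p = 5.63e-15) and 0.62 ± 0.07 in EAE T cells (adjusted p = 2.34e-06). Lif, the leukemia inhibitory factor of the IL-6 family, went from 0.77 ± 0.245 CPM unstimulated to 19.4 ± 2.51 CPM in naive T cells, a rise of 4.85 ± 0.19 on the log2 scale (adjusted p = 3.88e-13). Its rise in EAE T cells was 5.06 ± 0.23 (adjusted p = 6.59e-11), to 129 ± 14.8 CPM. Il21, a cytokine gene on which Stat3 acts, rose by 2.71 ± 0.33 (adjusted p = 1.3e-06) and 7.67 ± 0.17 (adjusted p = 1.31e-13). Jak1 fell by 0.92 ± 0.04 in naive T cells (adjusted p = 4.37e-12).

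In unstimulated B cells EAE and naive mice did not differ detectably in the 3 genes. Il6 was 0.40 ± 0.13 higher on the log2 scale in EAE, without overlap (edgeR adjusted p = 0.465, 0.0492% of genes called), and the others differed by -0.06 and -0.24. With control Ig the differences ran from -0.18 to 0.06 (0.0189% of genes called). EAE T cells had less Il6ra than naive T cells, by 0.23 ± 0.071 unstimulated (adjusted p = 0.0317, 17% of genes called lower) and 0.22 with control Ig (adjusted p = 0.0473). Those calls were lost without EAE library 2 or 3 or naive library 1 or 2 in the first case (range -0.29 to -0.19), and without EAE library 1 or 2 or naive library 1 or 3 in the second (-0.27 to -0.15). Il6st was lower by 0.31 ± 0.063 with control Ig (adjusted p = 0.00283), with 23.9% of genes called lower, and differed by -0.13 unstimulated (adjusted p = 0.0948).

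Between cell types the ligand and its receptor chains were on opposite sides. Unstimulated naive B cells had more Il6 than naive T cells, by 3.78 ± 0.17 on the log2 scale, and less Il6ra and Il6st, by 2.55 ± 0.074 and 2.63 ± 0.095, all called in the edgeR test, where 63.6% of genes were called. In EAE the Il6 difference was 1.59 ± 0.37 (adjusted p = 0.00549, 54% of genes called), and the receptor chains were lower by 2.40 and 2.74. B and T cells were counted against slightly different transcript sets, and the sample titles do not say whether they shared a sequencing run. Cell type, transcript set and any difference in run therefore cannot be told apart. Over the 20 groups in order of level, neighbors overlapped in 16 of 19 steps for Il6 and 15 of 19 for each receptor chain. The Il6 order broke after unstimulated EAE B cells, after unstimulated naive B cells and before unstimulated naive T cells, while Il6ra and Il6st each broke at the boundary between all T cell and all B cell groups.

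On a scale per length (TPM), the signaling chain exceeded the binding chain in every group mean. The Il6st to Il6ra ratio was 1.58 ± 0.194 (SD, n = 3) in unstimulated naive B cells and 2.69 ± 0.238 with control Ig, and in naive T cells it rose from 1.75 to 4.62. In EAE B cells it went from 1.52 to 3.35 with control Ig and stood at 2.34 with anti-Btla. The Il6 to Il6ra ratio in TPM was 2.07 in unstimulated naive B cells, 4.65 with control Ig, 0.95 with anti-Btla and 0.78 with anti-Btla + IFNb, and in EAE B cells it was 2.96, 5.97, 1.26 and 1.09. Mean ligand TPM was above that of Il6ra in unstimulated and control Ig B cells of both sets. In the anti-Btla arms the mean was below Il6ra in naive and above it in EAE B cells, without a clear split between the sets. The ratios were 0.95 ± 0.27 and, with IFNb, 0.78 ± 0.25 in naive B cells, and 1.26 ± 0.23 and 1.09 ± 0.28 in EAE B cells (SD). Single libraries lay on both sides of Il6ra in both of these naive arms and in EAE B cells with anti-Btla + IFNb. Low Il6 in those arms was known when the genes were chosen, so their ratios are a description. T cells had ratios of 0.029 to 0.48.

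**Figure D5:**
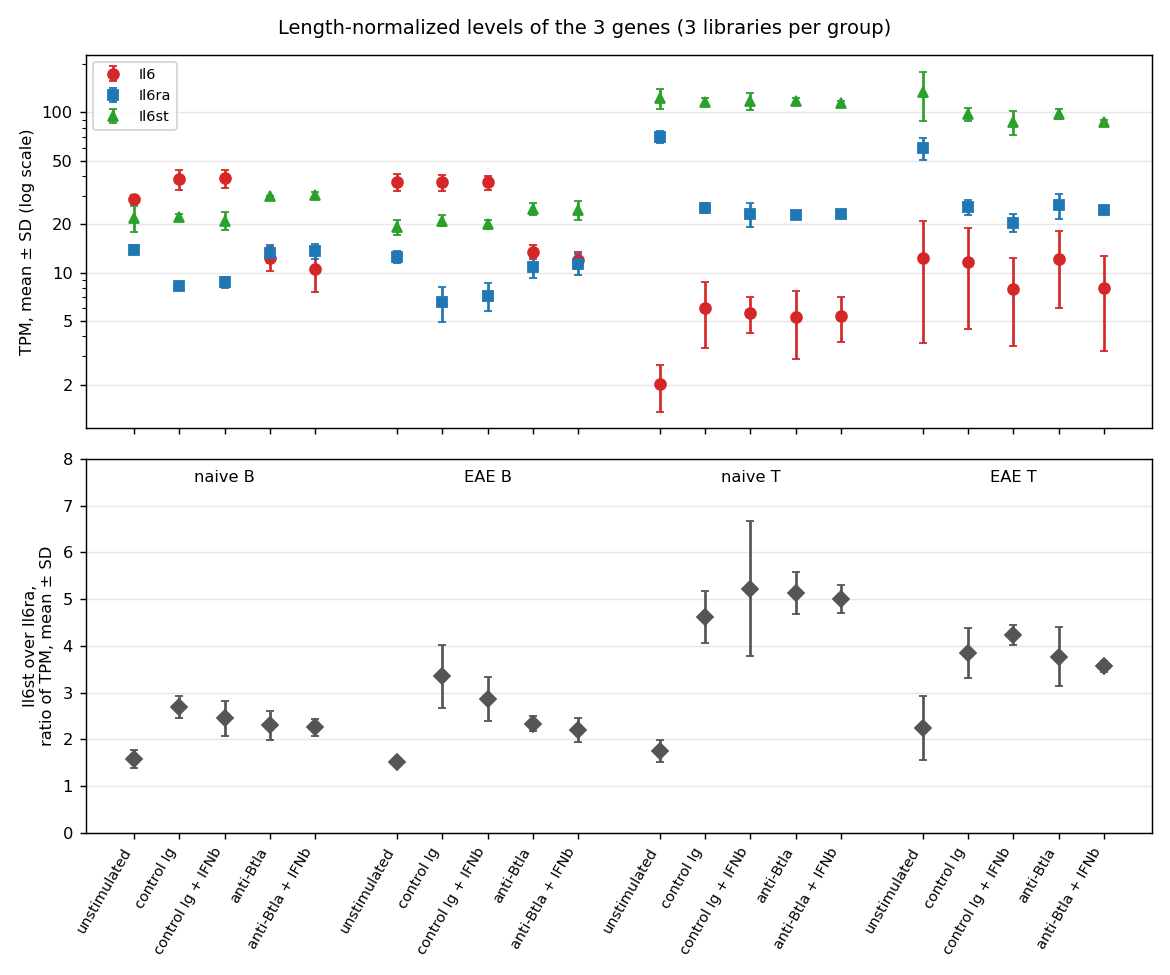
TPM of the 3 genes in the 20 groups as mean ± SD on a log axis, and the ratio of Il6st to Il6ra in TPM. Within each of the 4 sets the mean ratio is lowest in the unstimulated group, at 1.52 to 2.24, beside 2.20 to 5.23 over the stimulated groups of all sets.

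Each gene was counted over several transcripts. Il6-201 held 55.0 to 64.0% of Il6 counts over the B cell groups and 68.3 to 89.4% over the T cell groups, where counts were low. Il6-203 held 25.2 to 34.1% in B cells. Il6ra-201 held 60.03 to 73.8% of Il6ra counts over all groups, and Il6st-203 and Il6st-201 held 39.3 to 50.8% and 30.4 to 40.9% of Il6st counts.

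Genes were ranked by how alike their group means were to those of each member, as Pearson r of log2(CPM + 1), given as a description without a test. Over all 20 groups and 10385 genes, those most like Il6 were Slc43a3 (0.94), Sowahc (0.938), Ebi3 (0.927), Taf9b (0.921) and Irak1 (0.915), an order set largely by the gap between B and T cells. Over the 10 B cell groups the closest was Stx11 (0.99), followed by Chac1, Bend3, B9d2 and Taf4b, and over the 10 T cell groups Jun (0.987), followed by Zfp281, Lilrb4a, Nfkbia and Lilr4b. Il6ra was most like Epb41, Abtb1, Slc25a23, Thra and Plekha7 over 20 groups and most like Nfe2l2, Arid1b, Cerk, Card6 and Dock8 in B cells. Il6st was most like Tox, F2rl1, Trdc, Prkcq and Ppm1h over 20 groups and like Parp1, Tlk1, Crisp3, Sgms1 and 2700049A03Rik in B cells. Within the set, Il6 had r = -0.78 with Il6ra and r = -0.91 with Il6st over the 10 B cell groups, and -0.41 and -0.71 over the 10 T cell groups. The B cell groups include the anti-Btla arms, where low Il6 was known when the genes were chosen. Nothing is therefore read from the Il6 values of r that include B cells.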

How the data were processed

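RNA-seq was analyzed from 60 libraries in 20 groups of 3. The authors deposited 67 Salmon tables, 7 T cell libraries having been run 2 times, and per the labels the build was GRCm38. Salmon and DESeq2 stand in the submitters' processing notes without versions. Kit and strand setting: not given in the sources used here. The deposited values were estimated counts and TPM per transcript. Transcripts were joined to genes with GENCODE M21, estimated counts were summed over transcripts and runs and rounded to whole numbers, and TPM was summed over transcripts for comparisons between genes. Levels are plain CPM. There were 116546 transcripts for B cells and 116945 for T cells, of which 648 and 1000 matched no gene and were left out (0.186 to 0.243% and 0.442 to 0.708% of counts). The chi-square per degree of freedom was 1.53 to 1.65 between runs of a library and 4.39 to 55.2 between replicates (60 pairs), so no replicate pair was a single library. Promoters came from RefSeq.

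Sets of 15 libraries were fitted in edgeR 4.0.16 (R 4.3.3) and tested by its quasi-likelihood F-test, with TMM, filterByExpr (minimum count 10) and the replicate number as a block, as the study's methods put the replicate in their linear models. EAE against naive and B against T used 6 libraries without a block, and differences between sets used 30 libraries, blocked by number inside each set. Calls required an adjusted p (Benjamini-Hochberg, over all genes tested) below 0.05. The SE was the absolute log2 change over the square root of F. Same-numbered libraries deviated together from group means (median correlation 0.488 and 0.546 for naive and EAE B cells, 0.28 and 0.345 for naive and EAE T cells), with 25, 28, 30 and 29 of 30 pairs above 0.1. TMM shifted the median gene against plain CPM by 0.108 and 0.132 on the log2 scale on activation of naive and EAE B cells, and by 0.145 in EAE T cells with anti-Btla + IFNb against unstimulated, so fitted changes are relative to that shift.

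Of 34 comparisons 4 were described without a test, since they chose the genes, and for Il6 no p is given for the anti-Btla + IFNb arms of B cells, where its level was known as well. The Il6 p-values on activation of B cells used the control Ig libraries of those comparisons and are not independent of the choice. The members, lists, tests and alternatives were chosen with earlier results of these data known. Up to 4 genes with the smallest p of each list were named on activation and with anti-Btla + IFNb against control Ig + IFNb; Btla and Tnfrsf14 were added. Depth was 6.68 to 61.9 M counts in B cells and 7.3 to 34 M in T cells. No source says that libraries of a group came from separate cultures beyond the mouse numbers, and p-values measure the spread between these libraries. The steps were tested on simulated data with 200 changed genes: for anti-Btla against control Ig, 51% of 1.5-fold and 59.2% of 2-fold changes were recovered in naive B cells over 16366 genes, and 41.2% and 62% in EAE T cells over 14226 genes. Alternatives were no block, RLE factors, DESeq2 1.42.0, no filter, length-scaled counts and leaving out each library.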

Additional observations from a re-analysis of the deposited data

Results flagged for a closer look

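The activation change of Il6 differed between EAE T and naive T cells by -1.69 ± 0.32 on the log2 scale (EAE minus naive, edgeR adjusted p = 0.000165), a tested difference between sets.

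For the other entries the change went one way in all 3 pairs of a set and the opposite way in all 3 pairs of another, and the difference itself was not tested. Low Il6 in the anti-Btla arms of B cells, without and with IFNb, was known when the genes were chosen. The Il6 entries that involve B cells are therefore a description, and nothing is read from them. As mean log2 differences of CPM, Il6 with anti-Btla against control Ig differed by -1.92 between EAE B and EAE T cells. Il6 with anti-Btla against unstimulated differed by -2.47 between naive B and naive T cells, and with anti-Btla + IFNb against unstimulated by -2.77. The last comparison differed by 1.85 between naive T and EAE T cells. For Il6ra, anti-Btla + IFNb against unstimulated differed by 1.69 between naive B and naive T cells. Il6st with control Ig against unstimulated differed by 0.51 between EAE B and EAE T cells. Against unstimulated, Il6st differed between B and T cells with anti-Btla by 0.54 in naive and 0.80 in EAE mice, and with anti-Btla + IFNb by 0.61 and 0.70. B and T cells were counted against different transcript sets, and cell type, transcript set and any difference in sequencing run cannot be told apart.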

How the results depend on the processing

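Without the replicate block, 48 of 52 values were kept. Most values were log2 changes, kept with the same direction and side of the threshold. Others were the number of members called in comparisons without a called member, which stayed at 0 and have no direction. The counts of values kept include Il6 in B cells with anti-Btla + IFNb, where its low level was known when the genes were chosen. The block changed the call of Il6 on activation of EAE B cells (0.31, adjusted p = 0.22 without it) and of Il6st on activation of naive T cells (-0.11, adjusted p = 0.061). It also changed that of the Il6 activation difference between EAE T and naive T cells (-1.719, adjusted p = 0.10). Without it Il6 in EAE T cells with anti-Btla against unstimulated turned to -0.037, and no other call of the 3 genes changed. Values kept were 62 of 66 with DESeq2, 65 of 66 with RLE factors, 60 of 66 with no filter and 59 of 66 with length-scaled counts. With DESeq2, Il6ra was called in EAE T cells with anti-Btla + IFNb against control Ig + IFNb (0.38, adjusted p = 0.015), as it was with no filter (0.36, adjusted p = 0.038), Il6ra in EAE against naive T cells with control Ig was not called (-0.21), the Il6st activation difference between EAE T and naive T cells was called (-0.15, adjusted p = 0.047), and Il6st in EAE T cells with anti-Btla + IFNb against unstimulated turned to 0.024 (0.0057 with RLE factors and 0.046 with no filter). With no filter, Il6st lost its calls on activation of naive T cells (-0.066) and in EAE T cells with anti-Btla against unstimulated (-0.11), turned to 0.022 in naive T cells with anti-Btla + IFNb against unstimulated, and Il6 was called in EAE against naive T cells with control Ig (0.80, adjusted p = 0.016). With length-scaled counts, Il6st in EAE B cells with anti-Btla + IFNb against control Ig + IFNb was 0.21 (adjusted p = 0.073), Il6ra there against unstimulated -0.036, Il6st on activation of naive T cells 0.0042, Il6st in EAE T cells with anti-Btla against unstimulated -0.40, Il6ra in EAE against naive T cells -0.13 unstimulated and -0.10 with control Ig, and Il6st unstimulated 0.22. The described Il6st log2 ratio of anti-Btla to control Ig was 0.39 in naive and 0.21 in EAE B cells with length-scaled CPM, and 0.28 in EAE B cells with TMM. The causes were not tested. Of 504 values with 1 library left out, which include the comparisons described without a test, 472 were kept. The others ranged over -0.020 to 0.15 (Il6st, naive B activation), 0.19 to 0.45 (Il6, EAE B activation), -0.086 to 0.11 (Il6ra, EAE B anti-Btla + IFNb against unstimulated), -0.14 to -0.080 (Il6st, naive T activation), -0.0098 to 0.020 (Il6st, naive T anti-Btla against unstimulated), -0.082 to 0.21 and -0.23 to -0.085 (Il6 and Il6st, EAE T anti-Btla against unstimulated), -0.047 to 0.050 (Il6st, EAE T anti-Btla + IFNb against unstimulated), -0.29 to -0.19 and -0.27 to -0.15 (Il6ra, EAE against naive T cells, unstimulated and control Ig), 0.23 to 1.25 (Il6, the same with control Ig), -0.021 to 0.16 (Il6ra activation difference between EAE T and naive T cells), 0.43 to 0.62 (Il6st, naive B anti-Btla against unstimulated) and 0.64 to 0.91 (Il6ra, EAE B anti-Btla against control Ig). For the lists, 93 of 112 counts stayed within the limit for a like count without the block, 104 with DESeq2, 110 with RLE factors, 105 with no filter and 99 with length-scaled counts. Depth limits Il6 in T cells, which stood at a few CPM in libraries with a median of 13.1 M counts.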
